A study of Mus musculus with 15 samples.

Results

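The genes described are 9 genes of early lymphoid development, taken by their symbols from 55359 genes in each table: Rag1, Rag2, Dntt, Cd79a, Cd79b, Igll1, Vpreb1, Il7r and Ebf1. They were measured by RNA-seq in 15 libraries of mouse fetal liver progenitors immortalized with Hoxb8, a homeobox gene whose activity in these cells depends on the β-estradiol in their medium. The libraries form 5 groups of 3, and all of them share the Hoxb8 immortalization, a retroviral infection of 2 days and a sort for GFP. WT empty is the line hi-Ddx41+/+ with the empty virus. The line hi-Ddx41+/- received the empty virus (Het empty), a virus with wild-type DDX41 (Het DDX41) or a virus with the G173R or R525H mutant of human disease (Het G173R, Het R525H). Each genotype is 1 line, so genotype and line cannot be told apart, and no label says that the 3 libraries of a group come from separate cultures. The question set by this design is which genes differ between the lines and which differ between the viruses within the heterozygous line.

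RAG1 and RAG2 together form the recombinase that cuts immunoglobulin and T cell receptor genes in V(D)J recombination, and terminal transferase, the product of Dntt, adds untemplated bases at the joints. In the B lineage the surrogate light chain, made of VPREB1 and the λ5 protein encoded by Igll1, pairs with a rearranged heavy chain, and CD79A with CD79B carries the signal of that pre-B cell receptor into the cell. The interleukin-7 receptor chain IL7R sustains lymphoid progenitors, and the transcription factor EBF1 commits them to the B lineage. Low levels of some of these transcripts are known from multipotent progenitors before any lineage is fixed.

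Rag1 and Rag2 are neighbours on chromosome 2, and Rag1 counts per Rag2 count were lower on average in the heterozygous line. Igll1, on chromosome 16, moved with Rag2 between library numbers. The 250 bases before the start of these 3 genes are therefore shown, from RefSeq on GRCm38.p6, 5′ to 3′ on the gene's strand: Rag1 at chr2:101649533-101649782 (minus strand), Rag2 at chr2:101624462-101624711 (plus strand) and Igll1 at chr16:16863986-16864235 (minus strand). Capitals mark every match, on either strand, to 6 motifs: the E-boxes CAGCTG and CAGGTG, the EBF1 core CCCNNGGG, the Ikaros core TGGGAA, the ETS core GGAAGT and the TATA box TATAAA. No matches overlapped each other.
Rag1: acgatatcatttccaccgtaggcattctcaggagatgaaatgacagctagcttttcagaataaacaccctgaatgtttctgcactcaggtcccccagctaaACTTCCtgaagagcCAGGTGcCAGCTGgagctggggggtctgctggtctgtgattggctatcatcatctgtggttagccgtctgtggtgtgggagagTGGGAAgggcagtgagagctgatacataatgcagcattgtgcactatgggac
Rag2: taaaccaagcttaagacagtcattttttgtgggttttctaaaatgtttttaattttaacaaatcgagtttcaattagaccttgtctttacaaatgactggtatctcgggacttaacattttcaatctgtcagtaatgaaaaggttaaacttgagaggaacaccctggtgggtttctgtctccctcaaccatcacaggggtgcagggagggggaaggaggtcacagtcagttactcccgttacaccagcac
Igll1: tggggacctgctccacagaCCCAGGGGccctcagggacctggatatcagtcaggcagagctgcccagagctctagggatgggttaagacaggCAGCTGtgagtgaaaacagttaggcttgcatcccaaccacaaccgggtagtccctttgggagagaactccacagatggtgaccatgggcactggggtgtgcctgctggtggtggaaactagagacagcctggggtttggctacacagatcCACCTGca
The Rag1 window held CAGCTG and CAGGTG side by side, starting 128 and 135 bases before the start, with TGGGAA at 52 and GGAAGT, on the other strand, at 149. The Rag2 window held 0 of the 6 motifs. The window of Dntt and window 1 of Ebf1, not shown, held 0 as well. Other windows not shown did hold motifs. Window 2 of Ebf1 held TGGGAA and GGAAGT, that of Cd79a CAGGTG and GGAAGT, that of Il7r GGAAGT and that of Vpreb1 CAGGTG, on either strand. The windows shown were chosen for the counts, and their part in those counts was not tested. The Igll1 window held CAGCTG at 158 bases, CAGGTG at 8 on the other strand and CCCNNGGG at 231. Of 32851 windows of this length in the table, 13.0 percent held CAGCTG, 17.2 percent CAGGTG, 11.8 percent CCCNNGGG, 21.6 percent TGGGAA, 19.7 percent GGAAGT and 12.4 percent TATAAA. A match of letters describes the window and shows no binding. The table had an entry for 8 of the 9 genes; none was used for Cd79b.

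Total expected counts ranged from 22104066 to 49145873 per library, and 14548 genes passed the filter on low counts. Ddx41, the gene deleted on 1 allele, was 59.3 ± 3.94 CPM (library-scaled counts with TMM factors; mean ± SD, n = 3) in WT empty and had group means of 30.3 to 33.3 CPM in the heterozygous line (log2 -0.88, SE 0.085, edgeR adjusted p = 1.01e-05). Groups follow the sample titles, and the deposited names of 12 libraries carry another group code than the title. All 12 belong to the heterozygous line. The comparison of all 4 heterozygous groups with WT empty does not depend on which code is right, whereas each statement on a single virus does. The libraries numbered 3 stood apart from those numbered 1 and 2 in every group, so results are also given from libraries 1 and 2 alone. The summed level of 14 myeloid progenitor genes, such as the granule genes Mpo and Elane, was 1340 to 1780 CPM in the libraries numbered 3 and 1860 to 3260 in the others.

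Hematopoietic progenitor markers were abundant, and lymphoid markers ranged from abundant to absent. Cd34, Kit and Flt3 averaged 1560, 491 and 261 CPM over the 15 libraries. Hoxb8, the immortalizing gene, averaged 28.1 CPM, and its counts were not separated from those of the cells' own Hoxb8. Among B cell markers, Cd37, a tetraspanin of B and other blood cells, averaged 54.7 CPM, Cd72 22.8 and Cd74, the invariant chain of antigen presentation, 5.12 CPM. Ms4a1, a surface protein of B cells, had 17 counts in all libraries together, and Pax5, the factor that holds B cell identity, had 5 counts in a single WT empty library. Vpreb2 and the light chain constant gene Igkc had 0 counts in all 15 libraries, which allows up to 0.00568 CPM for 3 counts over all libraries (counting error only). Of 12 mature B cell markers, whose summed level was 54.7 to 69.7 CPM, Ighd, Cd55 and Fcmr were at 0 throughout. Of 18 T lineage markers, summing to 103 to 189 CPM, Thy1 averaged 116 CPM and the kinase gene Lck 5.95, and Bcl11b, Cd2 and Themis were at 0. In such bulk libraries, fewer cells with a transcript and less RNA per cell cannot be told apart.

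Per unit of length, Rag2, Ebf1 and Cd79b were the most abundant of the 9 genes. On the authors' TPM scale the means over 15 libraries were 10.4 for Rag2, 9.21 for Ebf1 and 8.22 for Cd79b. Igll1 followed with 1.93, Il7r with 1.26, Dntt with 1.18, Rag1 with 0.868, Cd79a with 0.845 and Vpreb1 with 0.541 TPM. In WT empty alone Cd79b came first with 14.8 TPM and a range of 13.2 to 16.8, clear of Ebf1 with 11.3 and a range of 9.35 to 12.4. Ebf1 overlapped Rag2, at 6.87 to 11.8 TPM. Il7r came next in WT empty with 3.56 ± 2.09 TPM and overlapped Igll1, at 1.91 to 2.42. In the 12 heterozygous libraries Rag2 led with 10.7 ± 2.89 TPM, before Ebf1 with 8.69 ± 1.66 and Cd79b with 6.57 ± 1.40, and these 3 overlapped. The other 6 genes lay lower, from 0.23 to 3.62 TPM in single libraries, each overlapping its neighbours in the order. Il7r, with 0.686 ± 0.371 TPM, was ahead of Vpreb1 alone there.

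**Figure D1:**
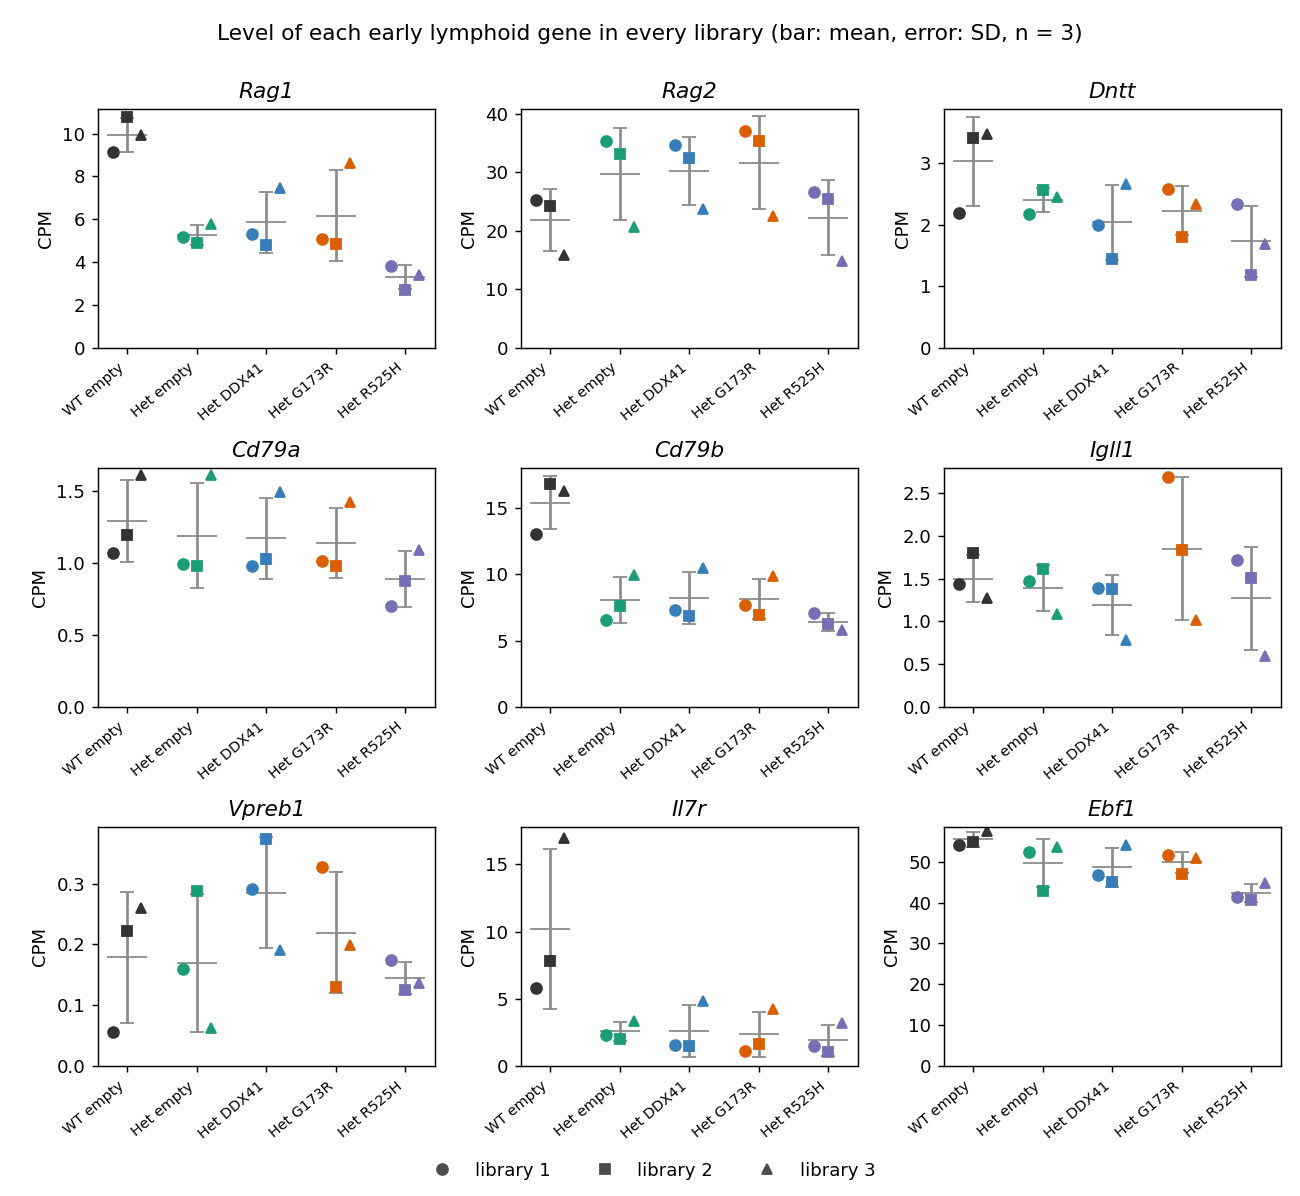
Level of each of the 9 genes in CPM (linear vertical axes from 0), with 1 point per library, the mean of each group as a horizontal line and the SD of 3 libraries as an error bar; circles, squares and triangles are libraries 1, 2 and 3. All 3 WT empty points lie above all 12 heterozygous points for Rag1, Cd79b, Il7r and Ebf1, and the triangles lie lowest in every group for Rag2 and Igll1 and highest in every group for Il7r and Cd79a.

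Of the 8 genes that could be tested, 3 were lower in the heterozygous line taken as a whole than in the wild-type line and 0 were higher. These were Rag1, Cd79b and Il7r. Over all genes tested, 7.67 percent passed an adjusted p of 0.05 in this comparison, 4.21 percent of them lower and 3.46 percent higher, all as shares of the genes tested. All 12 heterozygous libraries lay below all 3 WT empty libraries for 4 genes, the 3 named and Ebf1, against 3.92 percent of all genes. Log2 differences were negative for 7 of the 8 genes, with a median of -0.39. Over all genes 51.5 percent were negative and the median was -0.01. Vpreb1 did not pass the filter on low counts.

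Rag1, the catalytic subunit of the recombinase, was at 9.14, 10.7 and 9.92 CPM in WT empty libraries 1 to 3. In the heterozygous line it was at 5.18, 4.87 and 5.80 CPM in Het empty, 5.29, 4.78 and 7.47 in Het DDX41, 5.08, 4.84 and 8.60 in Het G173R and 3.82, 2.70 and 3.40 in Het R525H. The wild-type libraries were the highest 3, the R525H libraries the lowest 3, and the third libraries of Het DDX41 and Het G173R came nearest to the wild type. Rag1 was 50.5 percent of the wild-type level (log2 -0.99, SE 0.17, 95 percent interval -1.35 to -0.62, edgeR adjusted p = 0.00185). With libraries 1 and 2 alone the log2 difference was -1.14 (adjusted p = 0.000159).

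Rag2, the partner of RAG1 in the recombinase, did not follow it between the lines. It was at 25.3, 24.3 and 15.8 CPM in WT empty, 35.3, 33.2 and 20.7 in Het empty, 34.6, 32.5 and 23.6 in Het DDX41, 37.0, 35.3 and 22.4 in Het G173R and 26.5, 25.3 and 14.8 in Het R525H. In each group the third library was the lowest, at 0.572 to 0.705 times the mean of the other 2 libraries, and the groups overlapped. The log2 difference of the heterozygous line was 0.37 (SE 0.22, 95 percent interval -0.11 to 0.85, edgeR adjusted p = 0.409). With libraries 1 and 2 alone Rag2 was higher in the heterozygous line, by 0.38 on the log2 scale (adjusted p = 0.00145). In Het R525H against Het empty both genes had negative log2 differences, -0.68 for Rag1 and -0.41 for Rag2, and neither passed.

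The number of Rag1 counts per Rag2 count summarises the divergence between the lines, and it was chosen after its values were seen. It was 0.361, 0.443 and 0.629 in WT empty libraries 1 to 3. In libraries 1 and 2 of the 4 heterozygous groups it lay between 0.107 and 0.153. In the libraries numbered 3 it was 0.281 in Het empty, 0.316 in Het DDX41, 0.384 in Het G173R and 0.229 in Het R525H. The library numbered 3 was thus above the other 2 in each heterozygous group, and that of Het G173R exceeded WT empty library 1. The mean log2 ratio of the heterozygous libraries was lower by a difference of -1.38, and by -1.52 in libraries 1 and 2 alone. No p is given, since the ratio was built on the values it describes. The annotation places the gene B230118H07Rik, named Iftap in the files, over both: its exons overlap those of Rag1 on the same strand and those of Rag2 on the opposite strand. Reads shared between these genes could be assigned to either, so the Rag1 and Rag2 counts carry that uncertainty. Iftap itself had 0.982 ± 0.263 CPM in WT empty and group means of 1.01 to 1.68 in the heterozygous line (log2 0.50, edgeR adjusted p = 0.246), and its part in the Rag1 and Rag2 counts was not tested.

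**Figure D2:**
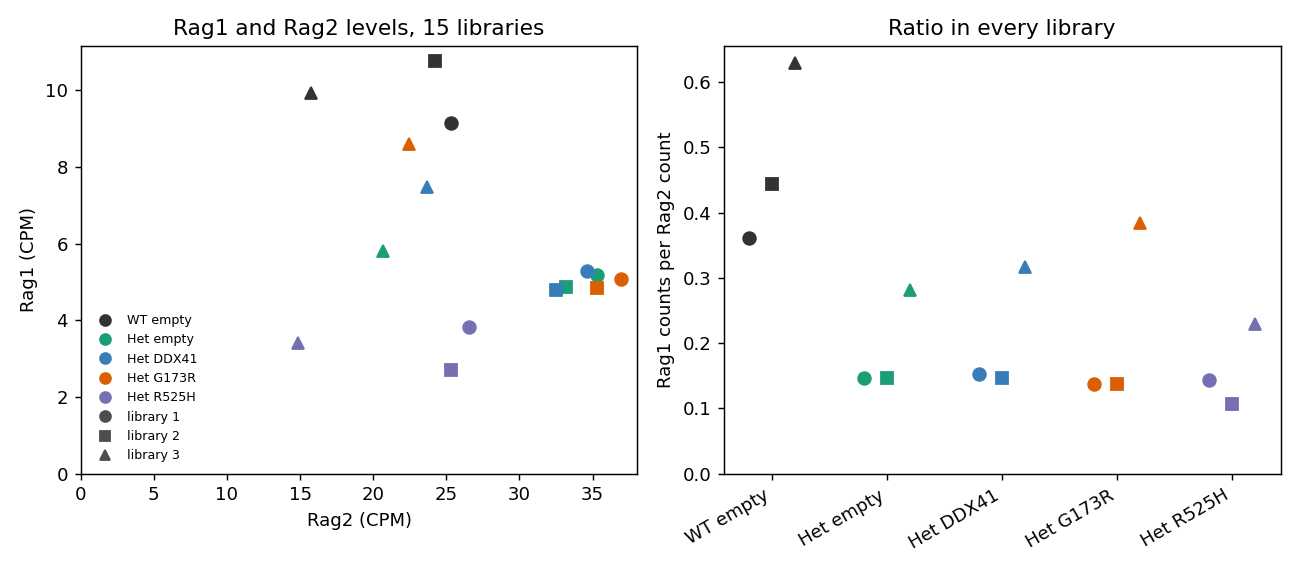
Left, Rag1 against Rag2 in CPM for 15 libraries (linear axes from 0); right, Rag1 counts per Rag2 count in each library by group. Colours are groups and shapes are library numbers. The wild-type points lie at 0.361 to 0.629 and libraries 1 and 2 of the heterozygous groups at 0.107 to 0.153, with the heterozygous libraries numbered 3 between 0.229 and 0.384.

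Dntt was at 2.19, 3.41 and 3.48 CPM in WT empty. The 12 heterozygous libraries ran from 1.18 through a median of 2.25 to 2.66 CPM. The lowest wild-type library fell inside the heterozygous range, and the other 2 were above it. The log2 difference was -0.54 (SE 0.22, 95 percent interval -1.01 to -0.07, edgeR adjusted p = 0.187), which did not pass.

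Among the other genes of cutting and joining, 1 passed the test. The list holds 16 genes, such as Prkdc, Dclre1c and Lig4, and all 16 were tested. Of all genes, 7.67 percent passed between the heterozygous line as a whole and WT empty, 4.21 percent lower and 3.46 percent higher. The counts in this and each further gene list are to be read beside these shares. Xrcc5, which encodes the Ku80 subunit of the end-binding complex, fell by 0.88 on the log2 scale from 6.47 ± 0.541 to 3.56 ± 0.825 CPM (edgeR adjusted p = 0.00689), and 0 rose. The median log2 difference of the list was -0.03. The summed level of the list was lowest in the third library of all 5 groups, as was the level of Rag2 by itself. The sum was 1930 to 2260 CPM there against 2350 to 2600 in libraries 1 and 2. Hmgb1 and Hmgb2, with means of 987 and 664 CPM over the 15 libraries, made up most of it. Whether the sum bears on Rag2 was not tested.

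Cd79b and Cd79a encode the 2 chains of a heterodimer, and only Cd79b passed the test. Cd79b was at 13.1, 16.8 and 16.3 CPM in WT empty, 6.56, 7.61 and 9.95 in Het empty, 7.31, 6.87 and 10.5 in Het DDX41, 7.66, 6.96 and 9.85 in Het G173R and 7.12, 6.26 and 5.77 in Het R525H. No heterozygous library reached the wild-type range. Cd79b was 49.8 percent of the wild-type level (log2 -1.01, SE 0.15, 95 percent interval -1.32 to -0.69, edgeR adjusted p = 0.000516).

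Cd79a was less abundant, with 24 to 62 counts per library, and its groups overlapped. It was at 1.07, 1.19 and 1.61 CPM in WT empty, and the heterozygous libraries ran from 0.700 through a median of 1 to 1.61 CPM. The log2 difference was -0.25 (SE 0.23, 95 percent interval -0.75 to 0.26, edgeR adjusted p = 0.635). That interval does not reach the -1.01 estimated for Cd79b, but the difference between the 2 genes was not itself tested.

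The surrogate light chain genes showed no difference between the lines that passed. Igll1 had 13 to 74 counts per library. It was at 1.43, 1.80 and 1.27 CPM in WT empty and ran from 0.590 through a median of 1.43 to 2.69 CPM in the heterozygous line, where Het G173R library 1 was the highest and Het R525H library 3 the lowest. The log2 difference of Igll1 was -0.09 (SE 0.32, 95 percent interval -0.77 to 0.59, edgeR adjusted p = 0.917). Vpreb1 had 2 to 17 counts per library and 109 in all, or 0.0562 to 0.26 CPM in WT empty and 0.062 to 0.373 in the heterozygous line. A difference in Vpreb1 was not detectable at this depth, and its exons overlap those of Top3b on the opposite strand in the annotation.

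Of 20 further genes of the pre-B and B cell receptors and their signalling, 14 were tested, 1 rose and 1 fell. Cd72, an inhibitory coreceptor of B cells, fell by 0.65 on the log2 scale, from 32.1 ± 3.55 to 20.5 ± 2.06 CPM (edgeR adjusted p = 3.96e-05). Cd24a, a surface protein of early B cells and of many other cells, had 0 counts in WT empty and 251 in the heterozygous line. Its level was at least 22-fold higher there, against a floor of 3 counts over the wild-type group. The median log2 difference of the 14 genes was -0.07, and the kinases Syk, Lyn and Btk did not pass.

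Il7r had the largest fold difference of the 8 tested genes, with the largest SE on the log2 scale. It was at 5.79, 7.84 and 16.9 CPM in WT empty, 2.34, 2.05 and 3.35 in Het empty, 1.56, 1.47 and 4.87 in Het DDX41, 1.16, 1.67 and 4.26 in Het G173R and 1.52, 1.03 and 3.22 in Het R525H. The lines did not overlap, and in all 5 groups the third library was the highest, at 1.53 to 3.21 times the mean of the first and second. Il7r was 23 percent of the wild-type level (log2 -2.12, SE 0.41, 95 percent interval -3.01 to -1.23, edgeR adjusted p = 0.00485). Without WT empty library 3 it was at log2 -1.54 and no longer passed (adjusted p = 0.0848). With libraries 1 and 2 of all groups it was at -2.12 again (adjusted p = 2.86e-05).

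The genes around the interleukin-7 receptor differed little. Of 15 genes, among them Il2rg, Jak1, Jak3, Stat5a and Stat5b, 13 were tested, 0 rose and 1 fell, and their median log2 difference was 0.04. The gene that fell was Bcl2, a survival factor, from 28.1 ± 1.92 to 22.2 ± 1.91 CPM (log2 -0.34, edgeR adjusted p = 0.0112). Il2rg, the shared γ chain that pairs with IL7R, was 143 ± 10.7 against 117 ± 13.4 CPM (log2 -0.29, edgeR adjusted p = 0.053). The summed level of this list was highest in the third library of all 5 groups, at 1060 to 1100 CPM against 969 to 1040, as Il7r was, and its part in the Il7r values was not tested.

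Ebf1 was the most counted of the 9 genes, with 986 to 2243 counts per library. It was at 54.0, 54.7 and 57.5 CPM in WT empty, 52.4, 42.9 and 53.5 in Het empty, 46.7, 45 and 54 in Het DDX41, 51.6, 46.9 and 50.9 in Het G173R and 41.4, 40.6 and 44.8 in Het R525H. The 12 heterozygous libraries lay below the wild type, with Het DDX41 library 3 at the same rounded value as the lowest wild-type library. The log2 difference was -0.22 (SE 0.073, 95 percent interval -0.38 to -0.07, edgeR adjusted p = 0.0873), which did not pass. With libraries 1 and 2 alone it was -0.24 and passed (adjusted p = 0.0468).

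Among 25 other transcription factors of lymphoid priming, 19 were tested, 0 rose and 2 fell, and the median log2 difference was -0.02. Mef2c, a factor that favours lymphoid over myeloid fates in progenitors, fell from 37 ± 6.76 to 6.12 ± 0.657 CPM (log2 -2.60, SE 0.1, edgeR adjusted p = 8.05e-10). Ikzf2, the Ikaros family member Helios, fell from 65.8 ± 7.83 to 27.7 ± 6.36 CPM (log2 -1.25, edgeR adjusted p = 0.000377). Ikzf1, Tcf3, Spi1 and Foxo1 did not pass. Pou2af1, a B cell coactivator, was at 0 in all groups.

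Of 16 markers of lymphoid-primed progenitors, 8 were tested, 0 rose and 3 fell. Flt3, the receptor that marks lymphoid-primed progenitors, fell from 366 ± 24.9 to 235 ± 29.1 CPM (log2 -0.65, edgeR adjusted p = 1.96e-05). Notch1 and Kit fell by 0.34 and 0.22. Of the 14 myeloid progenitor markers, all tested, 3 rose and 1 fell, with a median of 0.53. Lysozyme, Lyz2, rose from 3.01 ± 0.433 to 11.9 ± 1.70 CPM (log2 1.98, edgeR adjusted p = 2.77e-07), Elane and Ly6c2 rose by 2.05 and 4.22 on the log2 scale, and the receptor Csf3r fell by 0.31. The summed myeloid level was 1450 to 2070 CPM in WT empty and 1340 to 3260 in the heterozygous groups, and its part in the lymphoid differences was not tested. Other lymphoid and dendritic lists each held 1 or 2 genes that passed. Of 9 tested T lineage markers Gata3 rose (log2 3.66, 0.0617 ± 0.0651 to 0.863 ± 0.331 CPM) and Thy1 fell by 0.46. Rora fell by 0.57 among 5 tested NK and innate lymphoid markers, Itgax by 1.01 among 9 dendritic markers and Cd37 by 0.28 among 4 mature B cell markers.

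**Figure D3:**
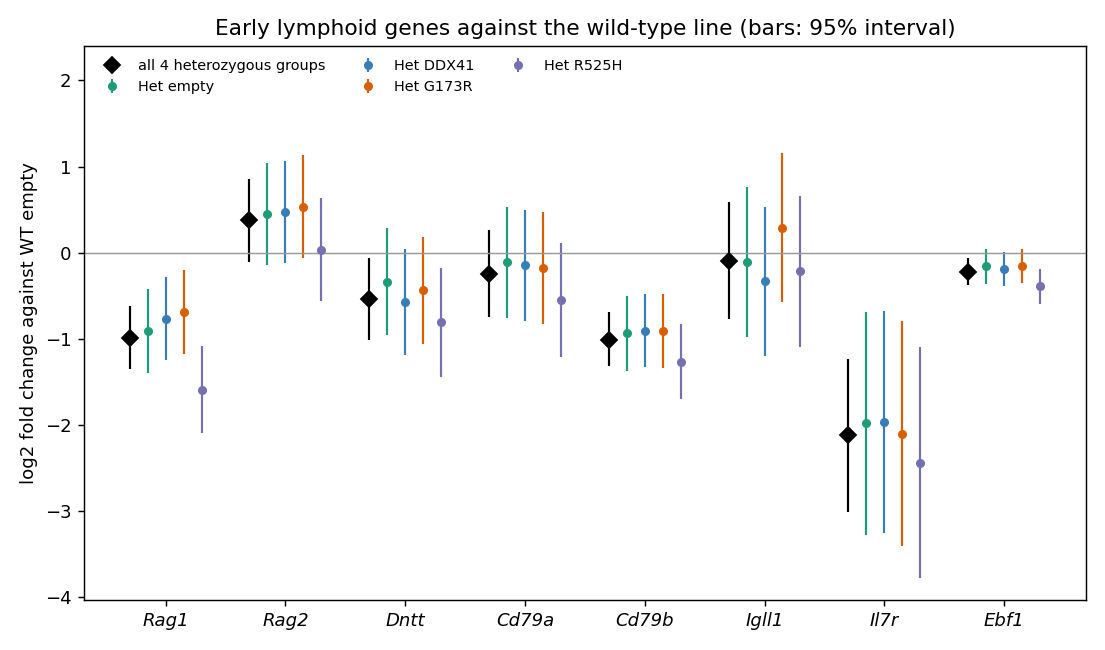
Log2 fold change of the 8 tested genes against WT empty, for all 4 heterozygous groups together (diamonds) and each group alone (circles), with 95 percent intervals from the edgeR fit; the grey line marks no difference. The intervals of Rag1, Cd79b and Il7r lie below 0 in all 5 comparisons, and those of Rag2, Cd79a and Igll1 include 0 in all 5.

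With the empty virus in both lines, 2 of the 8 genes were lower and 0 higher, against 3.66 percent of all genes in either direction and 1.75 percent lower. Rag1 fell by 0.91 (SE 0.23, edgeR adjusted p = 0.0415) and Cd79b by 0.94 (SE 0.20, adjusted p = 0.0155) on the log2 scale. All 3 Het empty libraries were below all 3 wild-type libraries for 4 genes, Rag1, Cd79b, Il7r and Ebf1, against 8.82 percent of all genes. Il7r was at log2 -1.98 (SE 0.60, adjusted p = 0.11). With the library number as a replicate block 4 genes were called, Rag1, Cd79b, Il7r (log2 -1.87, adjusted p = 5.82e-05) and, higher, Rag2 (log2 0.44, adjusted p = 0.000498). Libraries 1 and 2 alone called the same 4 genes. The calls over all genes rose as well, from 532 to 1352 with the block and to 1068 with libraries 1 and 2. The calls were sensitive to single libraries: leaving out any 1 of the 6 left 0 or 1 gene, which was Cd79b without WT empty 1 or Het empty 3.

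The other 3 heterozygous groups were set beside the same 3 wild-type libraries, so these comparisons share their controls. Cd79b was lower in all of them, at log2 -0.91 in Het DDX41 (edgeR adjusted p = 0.0168), -0.91 in Het G173R (adjusted p = 0.018) and -1.27 in Het R525H (adjusted p = 0.00131). It was the 1 gene of the 8 called in Het DDX41, where 4.54 percent of all genes were called and 2.19 percent were lower, and in Het G173R, where the shares were 3.79 and 1.66 percent. Without WT empty library 2 or 3, or library 1 or 2 of the virus group, 0 were called in each of these comparisons, and without the virus group's library 3 there were 3. In Het R525H 4 genes were lower, Rag1 at log2 -1.59 (adjusted p = 0.000713), Cd79b, Il7r at -2.44 (adjusted p = 0.0301) and Ebf1 at -0.39 (adjusted p = 0.0222), against 6.68 percent of all genes called and 3.59 percent lower. Without WT empty library 1 or 2, Ebf1 was no longer called and the other 3 genes remained. Without WT empty library 3, or Het R525H library 1 or 2, Rag1 and Cd79b remained. All 4 were still called without Het R525H library 3. Rag1 was at log2 -0.77 in Het DDX41 (adjusted p = 0.0792) and -0.68 in Het G173R (adjusted p = 0.152), and Il7r at -1.96 (adjusted p = 0.0919) and -2.10 (adjusted p = 0.0843).

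Wild-type DDX41 was compared with the empty virus in the heterozygous line to see whether the genes moved back toward the wild-type line. None of the 8 genes passed, and 0 of all genes did in edgeR (0 percent; 254 genes at an unadjusted p under 0.05, and 2 genes called by DESeq2). Rag1 differed by 0.14 (95 percent interval -0.35 to 0.64), Cd79b by 0.03 (-0.40 to 0.46) and Il7r by 0.02 (-1.27 to 1.31) on the log2 scale. The line differences with the empty virus had 95 percent intervals of -1.40 to -0.42 for Rag1, -1.37 to -0.51 for Cd79b and -3.28 to -0.69 for Il7r. For Rag1 and Il7r the upper bound of the virus difference exceeds the size of the line bound nearest 0. For Cd79b it is smaller, at 0.46 beside a line bound of -0.51. Het DDX41 was also set against WT empty. The 95 percent intervals there were -1.25 to -0.28 for Rag1, -1.33 to -0.48 for Cd79b and -3.25 to -0.67 for Il7r. All lie below 0 before adjustment, and of these genes Cd79b alone passed after it. A return of part of the difference was not detectable at this precision. Ddx41 counts did not differ between these groups either (log2 0.13, adjusted p = 1), and the counts do not show whether a virus-borne transcript is counted under that gene.

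G173R against the empty virus gave 0 of 8 genes, and 0 of all genes in edgeR (0 percent; 88 at an unadjusted p under 0.05, and 2 called by DESeq2). The largest of the 8 log2 differences was 0.40 for Igll1 (95 percent interval -0.47 to 1.27), and Rag1 was at 0.23 (-0.27 to 0.72). G173R against wild-type DDX41 also gave 0 of 8 (0 percent of all genes; 224 at an unadjusted p under 0.05, and 4 called by DESeq2).

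In Het R525H all 8 genes had negative log2 differences from Het empty, with a median of -0.42, and 0 passed the test. Of all genes, 2 were called, or 0.0137 percent, 725 had an unadjusted p under 0.05 and 51 were called by DESeq2, none of them among the 8. The median over all genes was -0.01, and 51.7 percent of all genes were negative. Rag1 had the lowest p of the 8 here, with its 3 R525H libraries at 2.70 to 3.82 CPM below the 9 other heterozygous libraries at 4.78 to 8.60. Its log2 difference was -0.68 from Het empty (95 percent interval -1.18 to -0.17, edgeR adjusted p = 0.716), -0.82 from Het DDX41 (-1.32 to -0.32, adjusted p = 0.708) and -0.90 from Het G173R (-1.41 to -0.40, adjusted p = 0.272). Separation of the 3 R525H libraries below those of 1 other group occurred in 5.22, 5.51 and 5.28 percent of all genes in the same comparisons. The share of genes lower than all 9 at once was not computed. These comparisons share the R525H libraries. Against the empty virus Ebf1 was at -0.23 (edgeR adjusted p = 0.914), and Het empty library 2, at 42.9 CPM, fell within the R525H range.

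R525H against wild-type DDX41 called 0 of 8 genes and 0 of all genes in edgeR (0 percent; 581 at an unadjusted p under 0.05, and 32 called by DESeq2), and with the replicate block 1 gene of the 8, Rag2, and 59 of all genes. R525H against G173R called 0 of 8 against 0.0825 percent of all genes, with 930 genes at an unadjusted p under 0.05. With the replicate block Rag1 (log2 -0.87, adjusted p = 0.0376) and Rag2 were called there, and DESeq2 called Rag1. Over all genes these fits called 141 and 104 genes, against 12. With libraries 1 and 2 alone Rag1 was at -0.61 and did not pass (adjusted p = 0.319). A test for any difference among the 4 heterozygous groups, which does not rest on their labels, called 0 of 8 genes and 0.0137 percent of all genes in edgeR, and 70 genes in DESeq2, none of them among the 8. Rag1 had the lowest p of the 8 in that edgeR test (adjusted p = 0.962).

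Across the library numbers 4 of the 9 genes moved the same way in every group, and not all in the same direction. In the third libraries Il7r and Cd79a were the highest of their group in 5 of 5 groups, with median ratios to the mean of libraries 1 and 2 of 2.54 and 1.42. Rag2 and Igll1 were the lowest in 5 of 5 groups, with median ratios of 0.621 and 0.567. The other 5 genes were less regular: the third library was the highest in 3 groups for Rag1, 4 for Ebf1 and 2 for Dntt, the highest in 3 and lowest in 1 for Cd79b, and the highest in 1 and lowest in 2 for Vpreb1. WT empty had the highest level of Rag1, Cd79b, Il7r and Ebf1 within each of the 3 numbers. The shares of all genes with these patterns were not computed, so these counts have no background beside them. Summed levels of some other gene lists also stood apart in the third library of all 5 groups. That of the lymphoid priming factors was the lowest there and that of the T lineage markers the highest. The labels do not say what the numbers share, and the source of the shift was not tested.

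**Figure D4:**
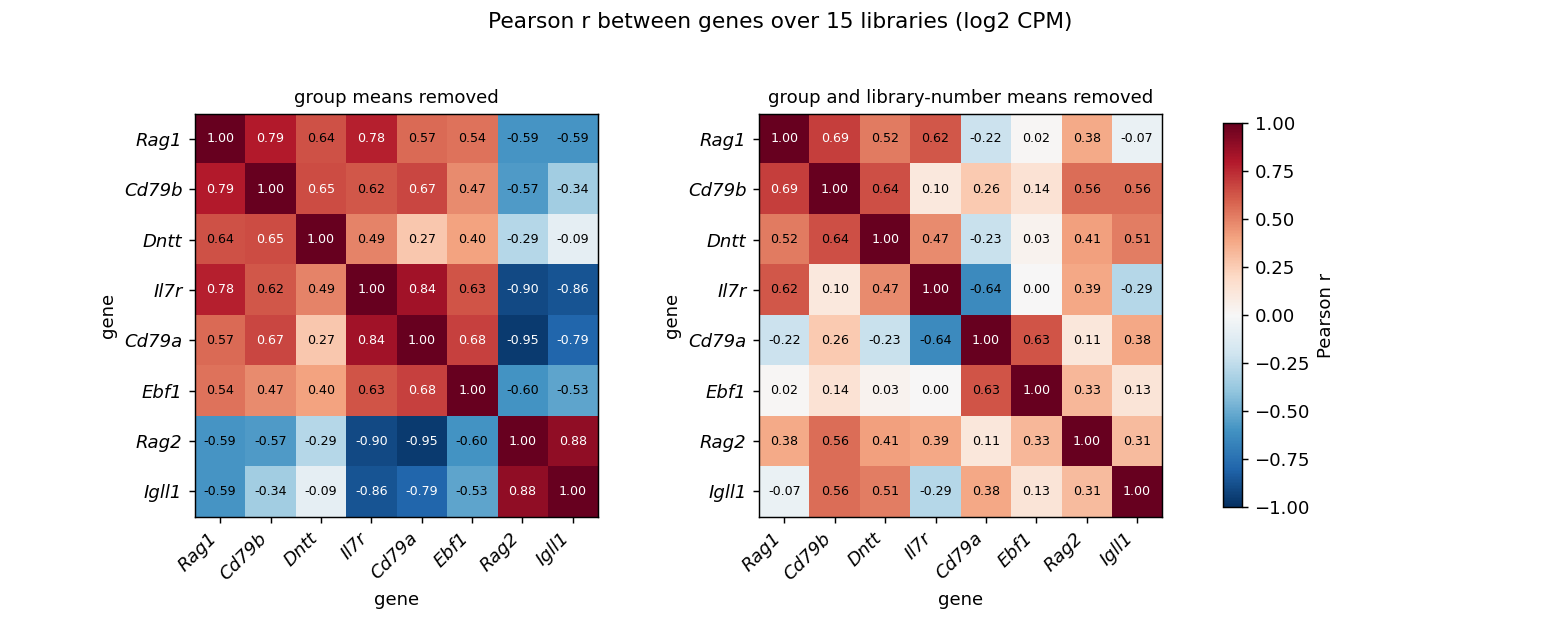
Pearson r between the 8 tested genes over 15 libraries on log2 CPM, after subtracting group means (left) and after subtracting group and library-number means (right); colour and printed value give r. On the left Rag2 and Igll1 form a block opposite to Il7r and Cd79a, and on the right that block is gone while Rag1 and Cd79b keep an r of 0.69.

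After group means were subtracted, Rag2 ran opposite to Cd79a (Pearson r = -0.954 over 15 libraries) and Il7r (-0.899) and with Igll1 (0.883). With the means of the library numbers also subtracted, r between Rag2 and Cd79a was 0.114 and between Rag2 and Igll1 0.314. Rag1 and Rag2 went from -0.592 to 0.375 with that step. Rag1 and Cd79b had r = 0.793 within groups and 0.691 after both steps, and Rag1 and Il7r 0.775 and 0.619. Cd79b and Il7r went from 0.623 to 0.102, and Il7r and Cd79a from 0.84 to -0.635. These values describe libraries that share groups and numbers, and no test was made.

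The genes most like each of the 8 over the 15 libraries, by Pearson r of log2 CPM, are a description of the measured patterns. For Rag1 they were Csgalnact1 (0.964), Nlrp10 (0.94) and Ralgds (0.94), and for Cd79b Nlrp10 (0.979), Fbxo33 (0.959) and Angpt1 (0.958). Nlrp10 thus stood among the nearest 3 of both. Rag2 had, among others, Mtr (0.918) and the E protein gene Tcf4 (0.913), and Igll1 had Rnf5 (0.93), Cmtm7 (0.921) and Rgs19 (0.92). For Il7r they were Samsn1 (0.961), Slc4a4 (0.959) and Pecam1 (0.957), for Cd79a Gstt2 (0.936), Clu (0.933) and Plxnd1 (0.933). Ebf1 had Cux1 (0.91), Lrrc8c (0.902) and Psd3 (0.896). Dntt had the loosest neighbours, S100a1 (0.872), Angpt1 (0.806) and Rnase4 (0.804). These r include differences between groups and between library numbers. After subtracting group means, r fell for some pairs, to 0.767 for Rag1 with Ralgds and 0.714 for Ebf1 with Lrrc8c. It rose for others, to 0.978 for Rag2 with Mtr. Means of the library numbers were not subtracted here.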

How the data were processed

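Total RNA was depleted of ribosomal RNA and made into stranded libraries, per the labels' protocols. The authors deposited the output of RSEM, named in the submitters' processing notes, as 1 table per sample. Its version, the aligner, the build and the strand setting were not given in the sources used here. The deposited tables hold, per the file headers, the expected count of each gene, which RSEM may split between genes, and TPM, which the authors scaled by gene length and library. The deposited FPKM and effective lengths were not used.

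The expected counts, rounded to integers, were analysed in edgeR 4.0.16 under R 4.3.3. Genes passed filterByExpr (14548 genes holding 99.95 to 99.97 percent of counts), libraries were scaled by TMM, and all 15 libraries entered 1 quasi-likelihood fit on group alone, after the script was tested on simulated data. P-values were adjusted by Benjamini-Hochberg over all genes tested, and a gene was called at an adjusted p under 0.05. Since no label names separate cultures, p-values cover only the spread among these samples, possibly technical. Levels are CPM on TMM-scaled totals, correlations used log2 CPM with a prior count of 2, and each SE was derived from the log2 fold change and its F statistic. DESeq2 1.42.0, other scaling and filters, fewer samples and left-out libraries were alternatives.

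The 9 genes and the gene lists were chosen with earlier results of these data known. Named from other lists were the called genes in the comparison of all heterozygous groups, up to 4 per list by p, besides markers and members given as not passing or at 0, which were picked after their values were seen. The most alike genes were the 3 with a symbol, at least 1 CPM and the highest r. Some genes these rules select are not reported here.

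Same-numbered libraries were checked for pairing by the correlation over genes of their deviations from group means. All 3 correlations exceeded 0.1 for Het empty against WT empty (0.358 to 0.49), G173R against the empty virus (0.181 to 0.399) and against wild-type DDX41 (0.28 to 0.707), and R525H against wild-type DDX41 (0.321 to 0.635) and G173R (0.287 to 0.643). For these the fit with a replicate block is given beside results it changes. GENCODE M21 served for gene neighbours and chromosomes only, and promoters came from RefSeq on GRCm38.p6.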

Additional observations from a re-analysis of the deposited data

How the results depend on the processing

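With the replicate block the number of the 8 genes called was 5 for all heterozygous groups against WT empty (Rag2 higher and Ebf1 lower were added, with 2539 of all genes called), 4 each for Het empty, Het DDX41 and Het G173R against WT empty (1352, 1887 and 1453 of all genes), 1 (Rag2) for R525H against the empty virus (63), 1 for R525H against wild-type DDX41 (59), 2 for R525H against G173R (141) and 1 for any difference among the heterozygous groups (76). The block changed no other count of these genes by over 1.5 times. For all heterozygous groups the block is given here alone because same-numbered libraries of Het DDX41, Het G173R and Het R525H did not all correlate with those of WT empty above 0.1. Libraries 1 and 2 alone gave 5, 4, 4 and 4 in the comparisons with WT empty other than that of R525H (2087, 1068, 1307 and 1133 of all genes), and 1 (Rag2) for R525H against G173R (38). DESeq2 gave 3 for Het DDX41 (1009) and 2 for Het G173R (805) against WT empty and 1 for R525H against G173R (104). In edgeR without these changes all genes called were 1116, 532, 661 and 551 against WT empty in the same order, and 12 for R525H against G173R. Without the filter on low counts there were 2 each for Het DDX41 and Het G173R against WT empty (563 and 519), and with only the groups compared in the fit there were 0 each (396 and 278).

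Leaving out 1 library at a time gave 2 to 3 genes for all heterozygous groups, 0 to 1 for Het empty, 0 to 3 for Het DDX41, 0 to 3 for Het G173R and 2 to 4 for Het R525H against WT empty. Counts in single heterozygous groups thus depended on single libraries, while Rag1 and Cd79b were called for all heterozygous groups in each of these repeats. The difference between the lines in the mean log2 Rag1 per Rag2 ratio, heterozygous minus wild type, stayed between -1.56 and -1.16.

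Directions turned for genes that never passed. Igll1 in all heterozygous groups was at 0.0489 with libraries 1 and 2, and at -0.201 to 0.0501 with 1 library left out. In Het empty against WT empty, leaving out 1 library put Cd79a at -0.385 to 0.0858 and Igll1 at -0.226 to 0.0422. On the authors' TPM the Ebf1 ratio of means was log2 -0.38 in place of -0.22. The cause of these changes was not tested. Vpreb1, with at most 17 counts per library, and Cd79a and Igll1, with at most 62 and 74, are limited by depth.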
